A study of Mus musculus with 4 samples.

Results

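The genes described here are Ifng, which encodes the cytokine interferon-gamma, with the T-box factor genes Tbx21 and Eomes, the homeobox factor gene Hlx, and the Runx factor genes Runx1, Runx2 and Runx3 with their shared partner gene Cbfb. All probe sets whose platform annotation names 1 gene only, that gene being on this list, were taken, which gave 14 of 45037 probe sets for 7 of the 8 genes, while probe sets of the whole array named 18193 genes alone. Runx1 has 6, Eomes and Runx3 have 2 each, and Ifng, Tbx21, Hlx and Cbfb have 1 each. No probe set named Runx2 alone, so no level is given for it. The samples were T cells of KO mice (2 arrays) and of wild-type (WT) mice (2 arrays). In both groups naive T cells from spleen had been kept for 3 days under conditions that induce regulatory T cells (Treg cells), a CD4 lineage that depends on Foxp3 and restrains immune responses. Which gene the KO lacks is not stated in the labels, nor are the strain, age or sex of the mice or the cytokines of the culture. Every array carries a number in its label, with no word on whether it stands for a single mouse or whether the cultures were separate. The p-values thus cover only the differences between these samples, some of which may be technical.

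Interferon-gamma is the signature cytokine of T helper 1 (Th1) cells, cytotoxic CD8 T cells and natural killer (NK) cells. Its gene is driven by T-bet, the product of Tbx21, and by the related factor eomesodermin, the product of Eomes, while Hlx acts with T-bet in developing Th1 cells. Runx factors bind DNA through the Runt domain, each as a dimer with core binding factor beta, the product of Cbfb, which does not bind DNA itself. Runx3 works with T-bet at Ifng and at the silencer of Il4 and guides the CD8 lineage, and Runx1 is used from the thymus on and pairs with Foxp3 in Treg cells. Runx2 is best known from bone.

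Signals are MAS5 values on a linear scale, 1 per probe set and array, scaled by the authors to a common trimmed mean. Differences were tested with limma on log2(signal + 16) over the 27022 probe sets left after the 40% with the lowest mean were left out. Risen and fallen are used only of probe sets at an adjusted p below 0.05 (Benjamini-Hochberg over all 27022), and fold changes are on that log2 scale, KO minus WT, which understates those of dim probe sets. Over the tested probe sets the arrays of 1 genotype correlated at 0.977 (KO) and 0.979 (WT), and arrays of different genotype at 0.933 to 0.941. These correlations run across probe sets and not across replicates. With 2 arrays per group the precision of every value is limited.

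Ifng, Tbx21, 1 of 2 Eomes probe sets and 1 of 2 Runx3 probe sets were higher in KO cells, and no probe set of these genes was called lower. Of the 14 probe sets 13 were tested, that of Hlx being among the dim ones left out, and 4 rose and 9 did not pass. Among all tested probe sets 7.89% rose and 9.17% fell. The KO and WT arrays did not overlap at 8 of the 13 probe sets, close to the 60.2% of all tested probe sets with such groups. The median log2 fold change of the 13 was 0.39, against -0.079 over all tested probe sets. In RNA of whole cultures, more cells of a kind and more RNA per cell cannot be told apart.

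**Figure D1:**
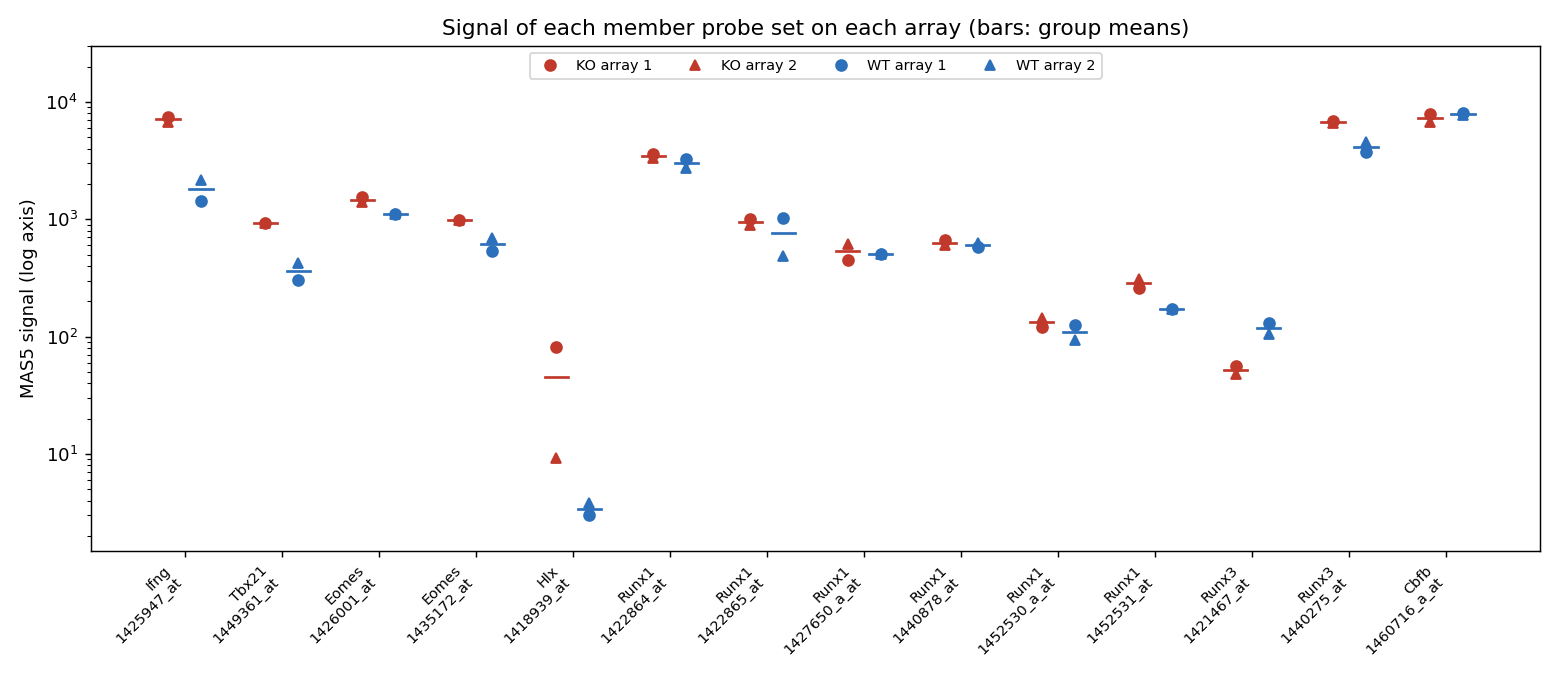
MAS5 signal (log axis) of the 14 probe sets on each array, KO in red to the left of WT in blue, with array 1 as a circle, array 2 as a triangle and a bar at each group mean. Ifng and Tbx21 show the widest gaps between the groups among the tested probe sets, and Hlx is high on KO array 1 only.

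Ifng had signals of 7513 and 6728 on KO arrays 1 and 2, against 1443 and 2177 on WT arrays 1 and 2. Both KO arrays were over 3 times above the higher WT array, and within neither genotype did the arrays differ by as much. The means were 7120.5 ± 554 in KO cells and 1810.0 ± 519 in WT cells (SD, n = 2 each). The rise was 3.98-fold (log2 fold change 1.99 ± 0.18 SE, adjusted p = 0.00023, limma), with a 95% interval of 3.00 to 5.28-fold.

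Tbx21 had signals of 932 and 938 on the KO arrays, against 305 and 427 on the WT arrays. The KO arrays were nearly equal, and both lay above both WT arrays. The rise was 2.52-fold (log2 fold change 1.33 ± 0.19 SE, adjusted p = 0.00211, limma; 95% interval 1.87 to 3.39-fold). When the spread was fitted without its dependence on intensity the call ended (adjusted p = 0.0525), as it did for the called Eomes (adjusted p = 0.121) and Runx3 (adjusted p = 0.0953) probe sets, so that of the members only Ifng was called under that setting.

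Ifng and Tbx21 rose most among these genes, and the stretches before their starts of transcription are shown for that reason. They are from RefSeq (GRCm38.p6), 250 bases each, 5′ to 3′ on the gene's strand. Capitals mark the core GGAA, or TTCC on the opposite strand, that ETS factors bind. For Ifng this is chr10:118440796-118441045 (plus strand), and for Tbx21 chr11:97115332-97115581 (minus strand).
Ifng: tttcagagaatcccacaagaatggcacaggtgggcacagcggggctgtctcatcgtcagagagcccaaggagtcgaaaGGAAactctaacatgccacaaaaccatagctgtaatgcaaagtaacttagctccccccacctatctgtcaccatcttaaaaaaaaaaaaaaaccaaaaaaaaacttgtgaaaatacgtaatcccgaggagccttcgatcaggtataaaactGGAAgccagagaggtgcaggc
Tbx21: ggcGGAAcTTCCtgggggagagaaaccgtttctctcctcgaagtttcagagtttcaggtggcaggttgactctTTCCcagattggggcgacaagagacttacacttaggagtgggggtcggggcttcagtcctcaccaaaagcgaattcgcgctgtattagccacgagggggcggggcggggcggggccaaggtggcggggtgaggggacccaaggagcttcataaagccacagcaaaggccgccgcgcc

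The cores lie 172 and 21 bases before the start of Ifng and 247, 242 and 177 bases before that of Tbx21. Such short cores are common, since 96% of 32851 promoter windows of 300 bases (250 before to 50 after the start) hold one on either strand. Of the 10 windows of the 8 genes, 0 hold the T-box element GGTGTG on either strand, which 19% of all windows hold, and 0 hold the AP-1 element TGANTCA, which 7.81% hold. The Runx element TGTGGT is in 3 of the 10, against 16.8% of all windows, and it is in neither the Ifng nor the Tbx21 window. An element missing from these windows says only that its letters are not there.

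Both Eomes probe sets were higher in KO cells, and 1 of them was called. Probe set 1435172_at had signals of 981 and 994 on the KO arrays, against 540.2 and 699 on the WT arrays. It rose 1.59-fold (log2 fold change 0.67 ± 0.16 SE, adjusted p = 0.0253, limma). Probe set 1426001_at had signals of 1542 and 1399.6 on the KO arrays, against 1120.4 and 1116 on the WT arrays, and was at 1.31-fold (log2 fold change 0.39 ± 0.12 SE, adjusted p = 0.0675, limma). The groups did not overlap at either probe set, and the 95% intervals of 1.23 to 2.06-fold and 1.07 to 1.60-fold overlapped each other. The call of 1435172_at ended without WT array 1 (log2 fold change 0.49), without KO array 1 (0.68) and without KO array 2 (0.66), at adjusted p of 0.136, 0.0604 and 0.0616 in limma.

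Hlx was dim, and only KO array 1 gave it a signal above 10. The values were 81.4 and 9.34 on KO arrays 1 and 2, against 3.03 and 3.81 on the WT arrays. Its mean lay at percentile 21.5 of all probe sets, and so it was not in the test. With all probe sets fitted it was at a log2 fold change of 1.36 ± 0.63 (SE, adjusted p = 0.274, limma). A single array thus carries the difference of the means.

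The 2 probe sets of Runx3 pointed in opposite directions. The bright one, 1440275_at, had signals of 6907 and 6622 on the KO arrays, against 3751 and 4535 on the WT arrays. It rose 1.64-fold (log2 fold change 0.71 ± 0.11 SE, adjusted p = 0.00411, limma; 95% interval 1.37 to 1.96-fold), and leaving out any 1 array left it called at log2 fold changes of 0.57 to 0.85. The dim one, 1421467_at, had signals of 56.1 and 47.8 on the KO arrays, against 130.1 and 105 on the WT arrays. Its KO signals were lower on both arrays, and it did not pass (log2 fold change -0.97 ± 0.32 SE, adjusted p = 0.0731, limma; 95% interval 0.308 to 0.847-fold). The groups did not overlap at either probe set, and neither did the intervals of the 2 fold changes. The annotation used here gives no position of a probe set along its gene, so the transcript forms that each one reads are not known from it.

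None of the 6 probe sets of Runx1 was called, and all 6 fold changes were above 0. The brightest, 1422864_at, had signals of 3606 and 3319 on the KO arrays, against 3262 and 2728 on the WT arrays. It was at 1.16-fold (log2 fold change 0.21 ± 0.12 SE, adjusted p = 0.275, limma), with a 95% interval of 0.956 to 1.40-fold. At 1452531_at the signals were 261 and 313 on the KO arrays, against 171 and 172 on the WT arrays. There the groups did not overlap, and the probe set just missed the threshold (1.61-fold, log2 fold change 0.69 ± 0.22 SE, adjusted p = 0.0628, limma). It passed with quantile normalization (adjusted p = 0.0451) and with arrays centred on their medians (adjusted p = 0.0483).

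The other Runx1 probe sets had overlapping groups. At 1422865_at the signals were 1009 and 891 on the KO arrays, against 1032 and 490.1 on the WT arrays, so WT array 1 was as high as the KO arrays and WT array 2 was low. Its log2 fold change of 0.40 ± 0.29 (SE, adjusted p = 0.389, limma) was 0.93 and called without WT array 1 (adjusted p = 0.0146), and -0.12 without WT array 2. The probe sets 1427650_a_at, 1440878_at and 1452530_a_at were at log2 fold changes of 0.05, 0.06 and 0.25, each within its SE of 0. All 6 read the same gene and are not independent measurements of it.

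Cbfb was bright in both groups. It had signals of 7969 and 6760.2 on the KO arrays, against 8059 and 7705 on the WT arrays. KO array 1 lay between the WT arrays and KO array 2 below both. The fold was 0.932 (log2 fold change -0.10 ± 0.11 SE, adjusted p = 0.562, limma), with a 95% interval of 0.787 to 1.10-fold. Whether the changes of Cbfb, Runx3 and Runx1 differ was not tested.

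**Figure D2:**
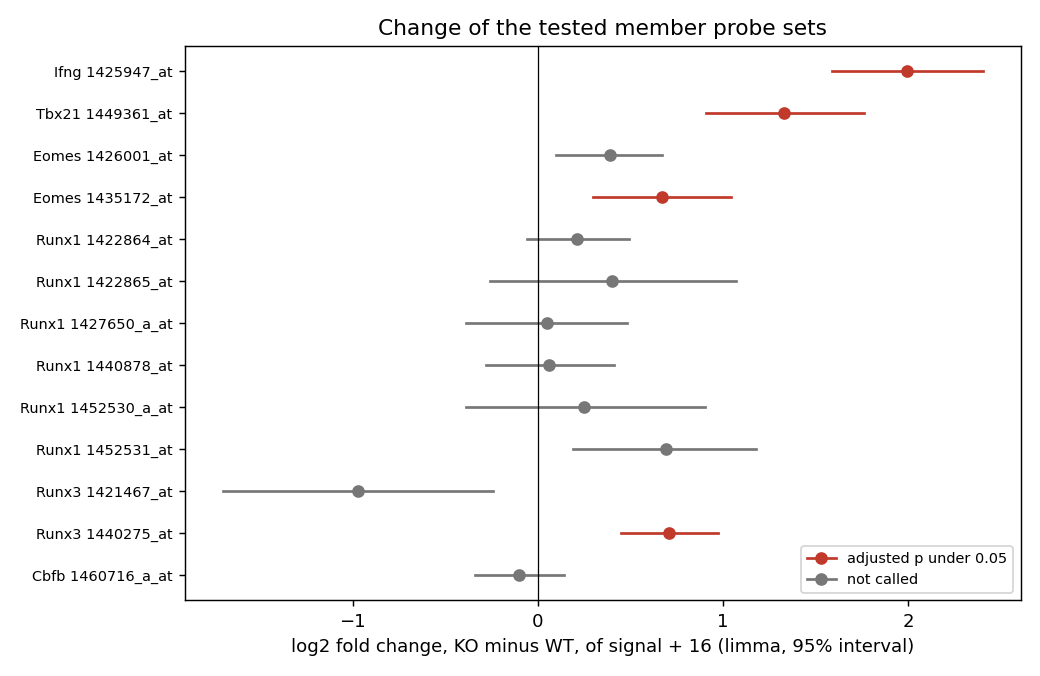
Log2 fold change (KO minus WT, of signal + 16) of the 13 tested probe sets with its 95% interval from limma. Red marks the 4 that passed an adjusted p of 0.05, and the dim Runx3 probe set at -0.97 is the only one besides Cbfb below 0.

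Transcription of Runx genes starts at a distal or a proximal promoter, and the most upstream windows of the 3 genes share a stretch of 18 bases. It is shown because it holds the Runx element ACCACA, the opposite strand of TGTGGT, at 2 places whose starts lie 8 bases apart. Below it is printed with 6 bases on each side, with the Runx elements in capitals, from RefSeq (GRCm38.p6), at chr16:92826025-92826054 (minus strand) for Runx1, chr17:44814583-44814612 (minus strand) for Runx2 and chr4:135120503-135120532 (plus strand) for Runx3.
Runx1: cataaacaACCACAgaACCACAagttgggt
Runx2: cacaaacaACCACAgaACCACAagtgcggt
Runx3: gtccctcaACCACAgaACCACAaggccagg

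The stretch begins 27 and 22 bases after the annotated start of Runx1 and Runx2 and 136 bases before that of Runx3. Only 4 of the 32851 windows hold it on either strand (0.0122%), the other being that of Gm16225, which overlaps the Runx3 window on the opposite strand. The stretch was searched for after the sequences had been seen. The second annotated windows of Runx1 and Runx3, and those of the other members, hold no TGTGGT. The arrays give no measure of which promoter was used.

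The pathway that induces Ifng moved in both directions. Lists of related genes are given by the brightest probe set of each gene, for which 10.5% of all 12547 tested genes rose, 9.87% fell and the median log2 fold change was -0.026. Of 13 tested genes of the interleukin-12, interleukin-18 and interleukin-27 pathways 4 rose, 3 fell and 6 did not pass, with a median of 0.32. Il12rb1, a chain of the interleukin-12 receptor, had signals of 997 and 933 on the KO arrays, against 69.3 and 82.8 on the WT arrays (log2 fold change 3.42 ± 0.20). Gadd45g (1.82 ± 0.18), which activates the p38 kinase pathway, Il18rap (1.58 ± 0.18), a chain of the interleukin-18 receptor, and Gadd45b (0.55 ± 0.14; 1 of 3 tested probe sets called) rose too (log2 fold change ± SE in parentheses, here and below). Stat4, which carries the interleukin-12 signal (-0.70 ± 0.14), Il6st (-0.70 ± 0.13; 2 of 3 probe sets called) and Il18r1 (-0.41 ± 0.09) fell. Il12rb2, the other receptor chain for interleukin-12, was dim at 119.8 and 94.8 on the KO arrays, against 51.9 and 47.9 on the WT arrays, and did not pass (adjusted p = 0.0988, limma).

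Downstream of the cytokine, 2 of 7 tested receptor and signalling genes rose and 0 fell, with a median of -0.15. Ifngr1, the ligand-binding receptor chain, had signals of 9573 and 9512 on the KO arrays, against 4762 and 5553 on the WT arrays (0.89 ± 0.10). Socs1, a feedback inhibitor of the receptor, rose as well (0.73 ± 0.13). Ifngr2, the signalling chain (-0.19 ± 0.16), the kinase genes Jak1 (-0.15 ± 0.10) and Jak2 (-0.38 ± 0.14), the phosphatase gene Ptpn2 (0.06 ± 0.09) and Pias1 (-0.40 ± 0.15) did not pass.

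Of 21 tested genes that interferon-gamma is known to induce, 5 rose, 1 fell and 15 did not pass, with a median of 0.15. The rises were those of the GTPase genes Gbp6 (1.90 ± 0.20), Iigp1 (1.74 ± 0.12) and Irgm1 (0.60 ± 0.11), of Cd274 (1.65 ± 0.16), which encodes the checkpoint ligand PD-L1, and of Socs1. Tap1, a peptide transporter gene, fell (-0.58 ± 0.12). Igtp was at 19451 and 18779.5 on the KO arrays, against 17819 and 18719 on the WT arrays, and Psmb8 (0.02 ± 0.09) and the factor gene Irf1 (-0.32 ± 0.11) did not pass either. Irgm1, Igtp, Psmb8 and Irf1 were named after their values were seen. Many genes of the list were thus bright in both groups.

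Genes known as targets of T-bet rose at 14 of 15 tested, 0 fell, and the median log2 fold change was 2.15. Ccl3, a chemokine gene, had signals of 5982 and 4471 on the KO arrays, against 172 and 329.9 on the WT arrays (4.35 ± 0.27). The chemokine genes Ccl4 (3.82 ± 0.14) and Ccl5 (3.38 ± 0.44) and the chemokine receptor gene Cxcr6 (3.80 ± 0.22) followed, and Il2rb, a chain of the interleukin-2 receptor, rose least (0.79 ± 0.10). Il12rb2 did not pass. Ccl5 and Nkg7 are on the CD8 and NK marker lists as well, and the part of other cell types in the rise of this list was not tested. The list was drawn up with results of these data known.

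**Figure D3:**
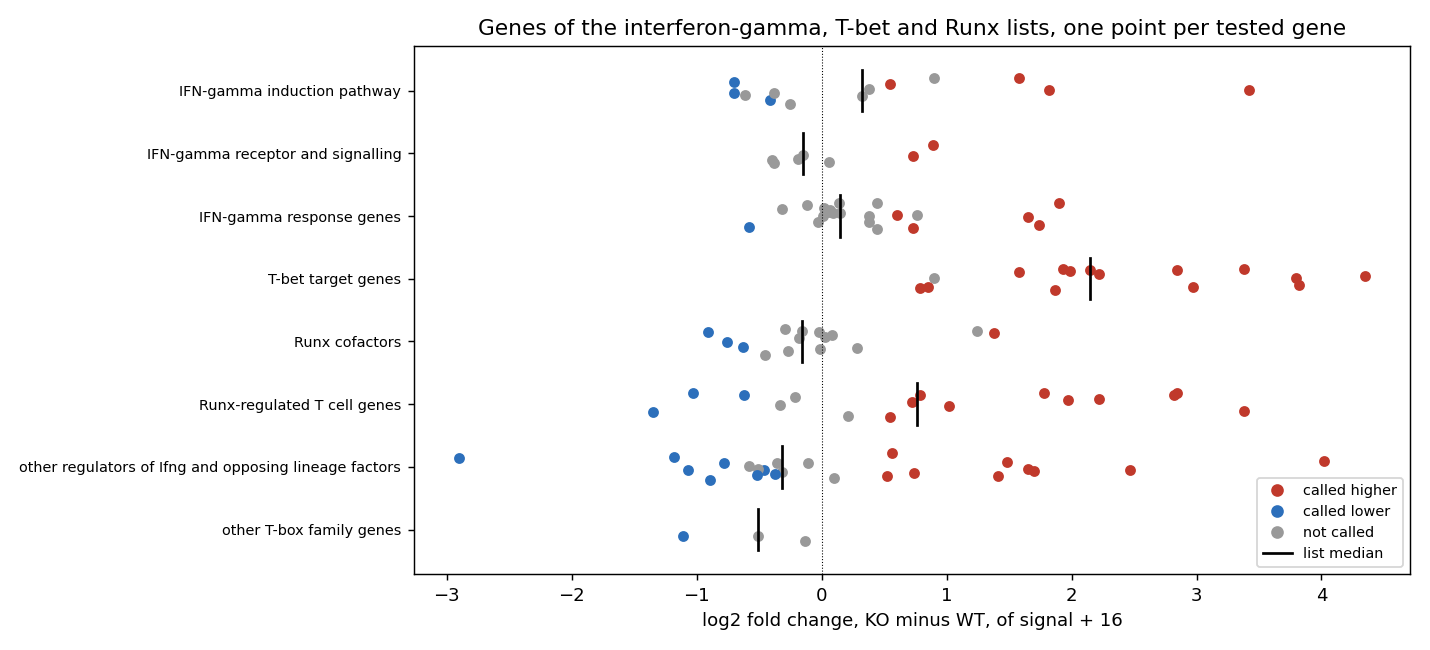
Log2 fold change (KO minus WT, of signal + 16) of each tested gene on the lists around Ifng, T-bet and Runx, with 1 point per gene, red for called higher, blue for called lower, grey for not called, and a black line at the list median. The T-bet targets lie at a median of 2.15, the interferon-gamma response genes at 0.15 and the Runx cofactors at -0.16.

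Genes that Runx factors are known to regulate in T cells moved both ways. Of 16 tested, Runx1 among them, 10 rose, 3 fell and 3 did not pass, with a median of 0.76. The 4 largest rises were those of Ccl5, the granzyme gene Gzmb (2.84 ± 0.14), the cytokine gene Il4 (2.82 ± 0.42) and the perforin gene Prf1 (2.22 ± 0.25; 1 of 2 probe sets called). The falls were those of Klf2, a factor of resting T cells (-1.35 ± 0.10), Foxp3 (-1.03 ± 0.13) and Bcl11b, a T lineage factor (-0.62 ± 0.09). Runx3 is known to activate some of these genes and to repress others. Among its known activation targets Itgae, which encodes the integrin chain CD103, rose (0.55 ± 0.12), and among its known repression targets Il4 and Zbtb7b, which encodes ThPOK (0.72 ± 0.19; 1 of 2 probe sets called), rose as well, while Cd4 was at -0.33 ± 0.17 and did not pass. Itgae, Zbtb7b and Cd4 were named with their values known.

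Of 15 tested cofactor genes of Runx proteins 1 rose, 3 fell and 11 did not pass, with a median of -0.16. Tle1 (-0.91 ± 0.22; 1 of 2 probe sets called) and Tle4 (-0.76 ± 0.19), Groucho corepressors, and the acetyltransferase gene Crebbp (-0.63 ± 0.12) fell. Yap1, a coactivator of the Hippo pathway, rose (1.38 ± 0.39) and was dim, at 118 and 128 on the KO arrays against 23.3 and 55.9 on the WT arrays.

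Other factors that act on Ifng, or that specify rival lineages, split as well. Of 23 tested, 9 rose and 8 fell, with a median of -0.32. Maf (4.02 ± 0.18), the Blimp-1 gene Prdm1 (2.47 ± 0.24), Id2 (1.70 ± 0.14), an inhibitor of E proteins, and the repressor gene Zbtb32 (1.65 ± 0.19) rose most. The falls were largest for Sox4 (-2.90 ± 0.16; 3 of 5 probe sets called), the Wnt pathway factor gene Lef1 (-1.18 ± 0.09), Zfpm1 (-1.07 ± 0.14; 1 of 2 probe sets called), which encodes the GATA cofactor FOG-1, and the NFAT factor gene Nfatc1 (-0.89 ± 0.11), of which 1 of 5 tested probe sets was called. Of the other T-box genes 12 had a probe set, and 9 of those were among the dim ones left out. Tbx6 fell (-1.11 ± 0.28), with signals of 78.0 and 76.6 on the KO arrays, against 161 and 212 on the WT arrays, and Mga (-0.51 ± 0.16) and Tbx19 (-0.13 ± 0.35) did not pass.

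The genes most like Ifng and Tbx21 over the 4 arrays were found by the distance between log2 profiles, each centred on its own mean. With 4 arrays in 2 groups this measure mostly reflects the size of the difference between the genotypes. Nearest to Ifng were Hsf2bp (distance 0.117), Nkain1 (0.122), Gbp6 (0.125), Tmigd1 (0.138) and the interleukin-1 receptor antagonist gene Il1rn (0.153). Gbp6, an interferon-induced GTPase gene, had signals of 5137 and 4881 on the KO arrays, against 1045 and 1680.4 on the WT arrays. Nearest to Tbx21 were the AP-1 factor gene Jun (0.019), Dennd11 (0.081), the nuclear receptor gene Rora (0.083), Tg (0.088) and Tmem140 (0.115).

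Markers of other cells that make interferon-gamma, and of further cell types, moved with the genotype too. Cd3d, which marks T cells, was at 25008 and 21778 on the KO arrays, against 18632 and 17974 on the WT arrays. Of 6 tested genes on the CD4 T cell list, all but Cd4 are shared with other T cells. Cd3g (1.26 ± 0.08), Cd3e (0.90 ± 0.12) and Cd3d (0.35 ± 0.09) rose, Cd5 fell (-0.82 ± 0.09), and Cd4 (-0.33 ± 0.17) and Cd28 (-0.20 ± 0.11) did not pass. Foxp3, which defines Treg cells, was at 947 and 1101 on the KO arrays, against 2177 and 2033 on the WT arrays. Of 7 tested CD8 T cell markers 4 rose, namely Gzmk (4.48 ± 0.52), Ccl5, Cd8a (1.78 ± 0.18) and Cd8b1 (1.02 ± 0.14), Cd7 fell (-1.60 ± 0.44), and the brighter Eomes probe set and Crtam (-0.24 ± 0.27) did not pass. Their summed signal was 10315 and 6005 on the KO arrays, against 2587 and 2912 on the WT arrays. Of 7 tested NK cell markers 6 rose, namely Gzma (4.35 ± 0.15), Klrd1 (3.31 ± 0.21), Tyrobp (3.14 ± 0.68), Nkg7 (2.97 ± 0.20), Klrk1 (2.52 ± 0.33) and Cd244a (2.38 ± 0.28), and Klre1 (1.14 ± 0.35) did not pass. Ncr1, which defines NK cells, was dim and not tested, at 58.5 and 33.6 on the KO arrays, against 20.4 and 8.18 on the WT arrays. The summed NK signal, with the untested Ncr1 and Klra8, was 53696 and 39024 on the KO arrays, against 2578 and 3207 on the WT arrays. Most of it was Gzma, at 43551 and 32626 on the KO arrays, against 1659 and 2012 on the WT arrays. Of 10 mast cell and basophil markers 8 rose, with sums of 44287 and 30045 on the KO arrays, against 922 and 1415 on the WT arrays. The largest were Mcpt1 (7.38 ± 0.25), Mcpt2 (7.13 ± 0.71), Cpa3 (6.09 ± 0.24) and Mcpt8 (5.98 ± 0.48). Kit (0.32 ± 0.16) and Tpsb2 (-0.19 ± 0.46 at its brightest probe set; 1 of 2 probe sets called higher) did not pass.

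Of 7 tested myeloid markers 5 rose, namely Fcgr3 (3.48 ± 0.32), Cd14 (3.37 ± 0.66), Lyz2 (1.87 ± 0.33), Adgre1 (1.61 ± 0.26) and Cd68 (1.43 ± 0.30), and Itgax did not pass. Including the dim, untested Itgam, the myeloid sums were 3602 and 2524 on the KO arrays, against 529.9 and 748 on the WT arrays. For Csf1r the brightest probe set did not pass, while 2 of its 3 tested probe sets were called higher. Of 6 tested B cell markers (Cd79a, Cd79b, Ms4a1, Blnk, Cr2 and Fcer2a) 0 passed. Including the dim, untested Pax5, their sums were 1249 and 913 on the KO arrays, against 629 and 1747 on the WT arrays. Of the gamma-delta T cell markers Sox13 (0.20 ± 0.32) and Blk (0.92 ± 0.40) were tested and did not pass. The receptor genes of that list, Trdc, Tcrg-V4, Tcrg-C1, Tcrg-C2 and Tcrg-C4, had no probe set naming them alone. Their levels are thus not known. The part of other cell types in the values of Ifng, Tbx21, Eomes and Runx3 was not tested.

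The KO arrays differed little from each other at the 4 member probe sets that rose. Some other genes that rose differed more, such as Gzmk, with signals of 3546 and 1085 on KO arrays 1 and 2. Others differed as little, such as Ifngr1 (9573 and 9512), Socs1 (1599.6 and 1556) and Cd3g (21527 and 20722). All of these examples were picked with their values known. The median difference was larger at the NK and the mast cell markers than at the CD8 markers and the CD4 T cell list. On the log2 scale KO array 1 minus KO array 2 was 0.16 for Ifng, -0.01 for Tbx21, -0.02 for the called Eomes probe set and 0.06 for the called Runx3 probe set. The same difference had a median of 0.62 over the 7 NK markers, of which 7 were higher on KO array 1. It was 0.58 over the 10 mast cell and basophil markers (9 higher) and 0.43 over the 7 myeloid markers (6 higher). Over the 6 B cell markers, of which 0 passed, it was 0.41 (4 higher), and over the 15 T-bet targets 0.33 (11 higher). Over the 2 gamma-delta markers it was 0.17 (1 higher) and over the 7 CD8 markers 0.14 (5 higher, from -1.08 to 1.69). Over the 6 tested genes of the CD4 T cell list it was -0.09 (3 higher), and over all tested probe sets -0.02. Between the WT arrays, array 2 was the higher one for these members. WT array 1 minus WT array 2 was -0.59 for Ifng, -0.46 for Tbx21, -0.36 for the called Eomes probe set and -0.27 for the called Runx3 probe set. Its median was -0.26 over the T-bet targets, -0.28 over the NK, -0.29 over the CD8 and -0.25 over the mast cell and basophil markers. It was -0.57 over the myeloid, -1.30 over the B cell and -0.25 over the gamma-delta markers. Over the CD4 T cell list it was 0.05 and over all tested probe sets -0.02.

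**Figure D4:**
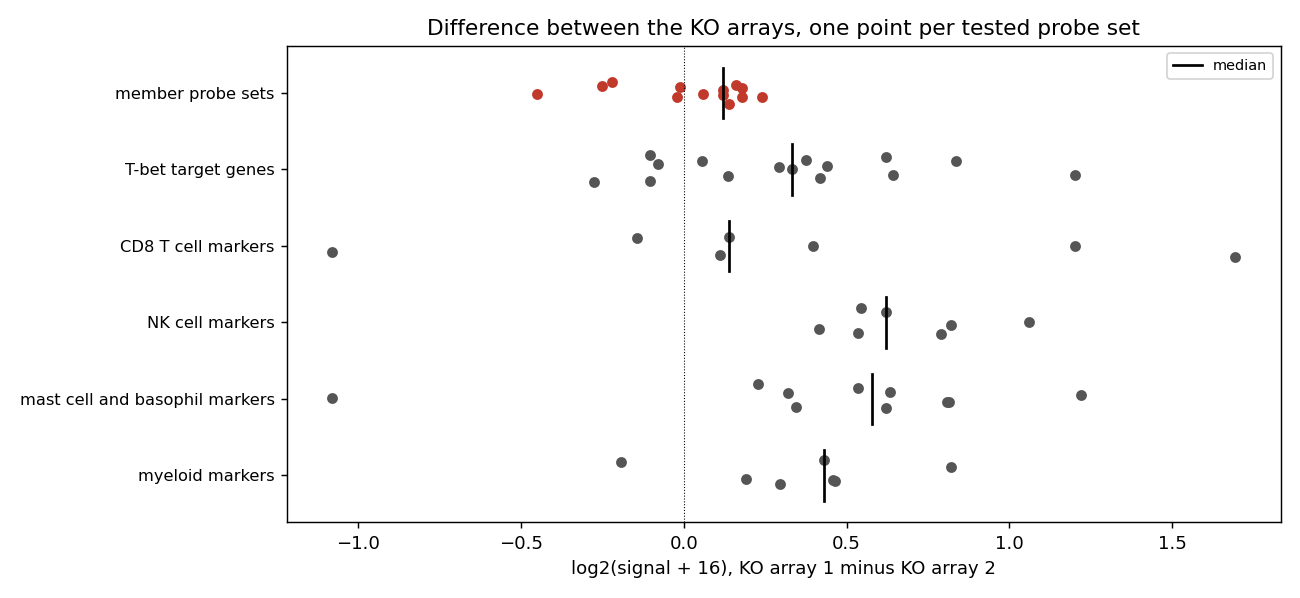
Difference in log2(signal + 16) between KO array 1 and KO array 2, with 1 point per tested probe set and a black line at each median. The 13 member probe sets lie between -0.45 and 0.24 and the NK markers between 0.42 and 1.06. The other lists shown overlap the range of the members. They run from -0.28 to 1.20 (T-bet targets), -1.08 to 1.69 (CD8), -1.08 to 1.22 (mast cell and basophil) and -0.19 to 0.82 (myeloid).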

How the data were processed

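RNA of 2 KO and 2 WT samples was hybridised to Affymetrix arrays, 1 sample each. Per the labels' protocols, biotin-labelled cRNA was made from 6 micrograms of Trizol-extracted RNA. The deposited values are linear intensity values per probe set, made with MAS5 per the submitters' processing notes. The MAS5 version and settings are not given in the sources used here. The mean after leaving out 2% at each end was the same on every array, which removes differences in RNA per cell. The table held 45101 probe sets, 64 of them controls, and 34958 named 1 gene in the platform annotation. Of these, 34754 had a gene identifier in the RefSeq table of GRCm38.p6, which changed 0 symbols.

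The KO minus WT difference was fitted in limma 3.58.1 (R 4.3.3) on log2(signal + 16), by lmFit and eBayes (trend in intensity, two-sided, no block), at an adjusted p of 0.05. There were 2 residual and 6.41 prior degrees of freedom. With 2 arrays per group no exact permutation test was run, since its smallest two-sided p is 0.333. Groups came from the titles. Same-numbered arrays did not deviate together (correlation of deviations 0.0103 across probe sets).

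Named genes were all members, up to 4 called genes per direction of each list, every tested gene of lists with 8 or fewer tested, and the 5 genes nearest to Ifng and to Tbx21. The members and lists were chosen with earlier results of these data known. The fit was tested on simulated data with known changes, at 50 probe sets for each size of change. It called 0% of log2 changes of 0.5, 36% of those of 1, 76% of those of 2 and 82% of those of 3. Of its 103 calls 6 were false. Far fewer probe sets were called there than in the data, so these shares need not hold for the data. The alternatives were other pseudocounts, filters and scalings, no trend, a replicate block, no cross-hybridising probe sets and leaving out each array.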

Additional observations from a re-analysis of the deposited data

How the results depend on the processing

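Of 168 member values under 13 alternatives, 156 kept their direction and their side of the threshold, 6 lost a call, 3 gained one and 3 changed sign. Ifng was called under all 13, at log2 fold changes of 1.70 to 2.29 and adjusted p of 8.89e-06 to 0.0396 (limma). With no intensity trend the calls numbered 727 higher and 456 lower, in place of 2131 and 2477, and 1 member was called higher. Leaving out 1 array at a time gave 1542 to 1824 called higher and 1033 to 2660 called lower (1349 without WT array 1, 1033 without WT array 2), and 3 to 4 members called higher. With 1 array left out the log2 fold changes of Runx1 1422865_at ran from -0.12 (without WT array 2) to 0.93, those of Runx1 1427650_a_at from -0.18 (without KO array 2) to 0.27 and those of Cbfb from -0.22 to 0.02 (without KO array 2), and none of the 3 was called where its sign changed. With the array number as a replicate block, 2412 probe sets were called higher, 2970 lower and 4 members higher, and no member call changed. The numbers are not shown by the labels to pair the arrays. The dim Runx3 probe set was left out by the filter of 60%. With 2 arrays per group, probe sets that did not pass may still differ.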
